A study of Zea mays with 6 samples.

Results

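Split regions are places where open chromatin of the same locus was recorded as 1 continuous stretch in one maize tissue and as separate stretches in the other. DNase I hypersensitive sites (DHSs), the intervals in which the nuclease DNase I cut chromatin more often than the control DNA, were taken from 1 list for inner stem tissue of V2 seedlings (V2-IST) and 1 list for husk. All DHSs of both lists that overlapped or touched were joined into combined regions. Members were chosen by these interval boundaries alone. A combined region was a split region when it held at least 1 DHS of each tissue and at least 2 DHSs of one tissue. Of 21445 combined regions, 11934 were shared by the tissues and 350 of these were split (2.93%, 95% Wilson interval 2.65 to 3.25). The other 11584 shared regions held exactly 1 DHS of each tissue and are called one-to-one regions. The split regions contained 498 of the 18485 V2-IST DHSs and 569 of the 15261 husk DHSs.

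All plants were of the inbred line B73, grown in a greenhouse with 16 h of light per day at temperatures above 22 °C. The V2-IST list rests on 2 biological replicates with 1 library each. Husk was sampled as its inner layer when silks had emerged by 2 to 5 cm, and its list rests on 3 libraries of 2 biological replicates, as 1 replicate was sequenced as a technical replicate too. Peaks were called against DNase I-treated naked DNA from husk, for which 1 library was made. The authors merged the replicates into a single list per tissue, and the lists hold no score, read number or replicate values, so whether a gap between DHSs exceeded the spread between replicates could not be tested. Depth of the libraries was not used here, and its part in whether a site appeared continuous or split was not tested. Intervals below cover counting error alone and treat regions as independent. The lists give no gene or expression values, so the tissues could not be checked against marker genes.

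In plant genomes, DNase I hypersensitivity marks DNA that is not wrapped in densely packed nucleosomes, as found at promoters, at enhancers and at other sites where regulatory proteins bind. A nucleosome or another protected stretch between neighbouring bound sites can separate them into distinct hypersensitive sites. Peak callers draw the boundary of a site where the read signal falls below a threshold, so a stretch of intermediate signal can be joined to its neighbours or left out. Which of these applied at a given split region cannot be told apart from boundaries alone.

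The number of DHSs in each tissue defined the split regions and is given here as a description. In 205 regions (58.6%), 1 V2-IST DHS faced 2 husk DHSs. The reverse arrangement, 2 V2-IST DHSs against 1 husk DHS, was found in 128 regions (36.6%). Regions with 3 DHSs of one tissue were rare. V2-IST had 3 DHSs and husk 1 DHS in 5 regions, and 2 regions held 1 V2-IST DHS and 3 husk DHSs. In the remaining 10 regions, both tissues had 2 DHSs, with the gaps at different places. No region had more than 4 DHSs in all. Among the 340 regions split in one tissue only, husk was the split side in 207 (60.9%, 55.6 to 65.9) and V2-IST in 133 (39.1%). The lists differ in length. After the V2-IST list was cut to its 15261 widest DHSs, husk was the split side in 66.5%. The husk list was left whole and narrow V2-IST parts were removed, so the cut itself favoured a higher husk share. With DHSs under 300 bp left out of both lists, 223 split regions were found and the husk share was 53.3%, with an interval from 46.6 to 59.8 that includes an even division.

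**Figure D1:**
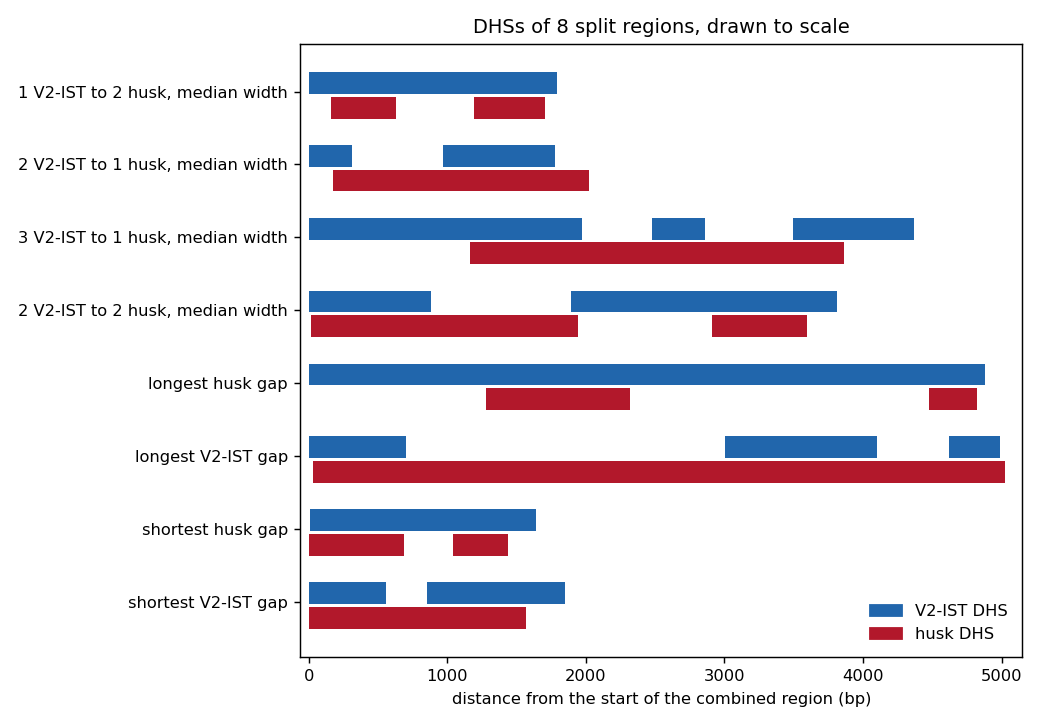
DHSs of V2-IST (blue) and husk (red) in 8 split regions, drawn to scale against the distance from the start of the combined region in bp. The top 4 rows show the region closest to the median width of each arrangement. The lower 4 rows show the longest and the shortest gap spanned in each direction, from 2300 bp down to 291 bp. The gap of one tissue lies under or over a continuous DHS of the other.

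The region closest to the median width of each arrangement shows what such loci looked like. On chromosome 9, at 21637860 to 21639647, a V2-IST DHS of 1788 bp covered the whole combined region. Husk had DHSs of 474 and 513 bp there, separated by 560 bp. On chromosome 5, at 9129465 to 9131484, the arrangement was reversed. V2-IST had DHSs of 312 and 803 bp separated by 660 bp, and husk had a single DHS of 1845 bp. Among regions with 3 V2-IST DHSs, the one of median width lay on chromosome 5 at 14166627 to 14170993. Its V2-IST DHSs of 1975, 383 and 870 bp were separated by 502 and 637 bp, and its husk DHS measured 2695 bp.

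Gaps inside split regions clustered in width. A gap is the stretch between neighbouring DHSs of one list, and it is spanned when 1 DHS of the other list reaches over it to the DHS on either side. In all, 367 gaps were spanned, 148 in V2-IST and 219 in husk. The median spanned gap was 587.5 bp in V2-IST (interval of the median 573 to 626, range 291 to 2300) and 594 bp in husk (582 to 609, range 354 to 2159). Medians of the tissues thus lay within each other's intervals. Gaps of 500 to 750 bp made up 104 of the 148 V2-IST gaps (70.3%) and 165 of the 219 husk gaps (75.3%). Only 10 and 9 gaps, respectively, were narrower than 500 bp. The lists hold few gaps of that width in any case, 53 in V2-IST and 16 in husk, so the lower edge of the distribution is that of the lists. Widths of 500 to 750 bp were also common among all gaps of at most 1 kb, 815 of 1388 in V2-IST and 581 of 1004 in husk. Of the spanned gaps of at most 1 kb, they made up 104 of 132 and 165 of 204, respectively. Among gaps of at most 1 kb, the spanned ones had a median of 580 bp in V2-IST, and in husk the median was 588 bp. The remaining gaps of that width had medians of 699.5 and 736.5 bp.

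Narrow gaps were spanned more often than wider ones in both tissues. In husk, 165 of 581 gaps of 500 to 750 bp were spanned by a V2-IST DHS (28.4%). The share was 7.43% at 750 to 1000 bp and 2.29% at 1000 to 1500 bp. In V2-IST, the corresponding shares were 12.8%, 3.47% and 1.72%. Within the narrower range of 500 to 600 bp, 106 of 257 husk gaps were spanned (41.2%, 35.4 to 47.3), against 67 of 383 V2-IST gaps (17.5%, 14.0 to 21.6). From 900 to 950 bp, 0 of 78 husk gaps and 1 of 92 V2-IST gaps were spanned, where the Wilson interval for husk reaches 4.69%. The shares did not fall evenly, and from 950 to 1000 bp 4 of 76 husk gaps (5.26%) and 6 of 101 V2-IST gaps (5.94%) were spanned.

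**Figure D2:**
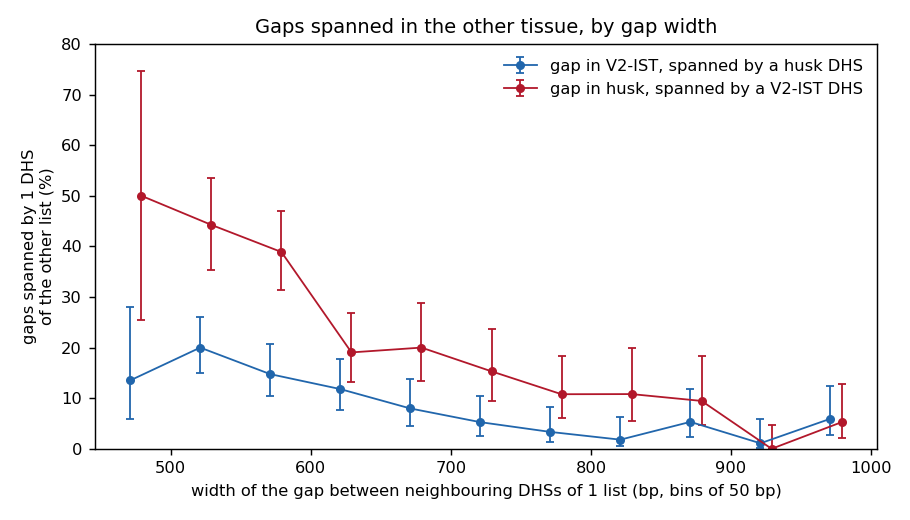
Share of gaps spanned by a DHS of the other tissue (%), against the width of the gap in bins of 50 bp, for gaps in V2-IST (blue) and in husk (red). Points are shares and bars are 95% Wilson intervals. At 500 to 550 bp, 44.2% of husk gaps and 20% of V2-IST gaps were spanned, and both shares were low near 1000 bp. A DHS has to be at least as wide as the gap it spans, so a fall with gap width is in part built in.

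Gaps were next divided by whether the DHSs on either side were open in the other tissue. Of 1004 husk gaps of at most 1 kb, 204 were spanned by a V2-IST DHS (20.3%, 17.9 to 22.9). In a further 525 (52.3%), the DHSs on either side each overlapped a different V2-IST DHS, so the gap was present in both tissues. One flanking DHS alone had a V2-IST counterpart at 222 gaps, and neither had one at 53. Of 1388 V2-IST gaps of that width, 132 were spanned by a husk DHS (9.51%, 8.08 to 11.2), 541 were present in both tissues (39.0%), 527 had a husk counterpart on one side (38.0%) and 188 on neither (13.5%). The V2-IST list, the longer of the lists, thus had the larger share of gaps with a flanking DHS of no counterpart. When only gaps whose flanking DHSs were both open in the other tissue were counted, 204 of 729 husk gaps (28.0%, 24.9 to 31.4) and 132 of 673 V2-IST gaps (19.6%, 16.8 to 22.8) were spanned. The intervals did not overlap. With DHSs under 300 bp left out, the shares of all gaps of at most 1 kb were 16.9% in husk and 10.5% in V2-IST. Flanking DHSs are shared between successive gaps, so these counts are not fully independent.

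The ends of this distribution were single loci. The longest spanned gap, 2300 bp in V2-IST, lay on chromosome 4 at 4787534 to 4792555. V2-IST had DHSs of 701, 1101 and 372 bp there, the other gap was 517 bp, and a husk DHS of 4991 bp ran under both gaps. The longest husk gap, 2159 bp, was also on chromosome 4, at 244516289 to 244521166, between husk DHSs of 1040 and 343 bp. A single V2-IST DHS of 4878 bp covered it. The next longest gaps were 1640 and 1561 bp in V2-IST, on chromosomes 7 and 1. In husk they were 1838 and 1506 bp, also on chromosomes 7 and 1. The shortest V2-IST gap, 291 bp on chromosome 2 at 15882492 to 15884343, separated DHSs of 560 and 1000 bp under a husk DHS of 1569 bp. The shortest husk gap, 354 bp on chromosome 3 at 152194058 to 152195699, separated DHSs of 685 and 401 bp under a V2-IST DHS of 1630 bp. The next shortest were 347 and 357 bp in V2-IST and 441 and 447 bp in husk.

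Gap width changed less with the size of the region than the width of the flanking parts did. Gaps under 500 bp were few in the lists and spanned gaps over 1000 bp were rare, which limits how far gap width could vary. In regions with 1 V2-IST DHS and 2 husk DHSs, the median gap was 577 bp in the 84 regions of 1000 to 1500 bp and 672 bp in the 39 regions of 3000 bp or more. Over the same classes, the larger husk DHS had medians of 325 and 1713 bp, and the smaller had medians of 234 and 814 bp. The gap took up a median of 49.9% of the spanning DHS in the narrowest class and 28.2% at 2000 to 3000 bp. In regions split in V2-IST, the median gap was 558 bp at 1000 to 1500 bp (35 regions) and 652 bp at 3000 bp or more (24 regions), while the larger part had medians of 394 and 1767 bp. Spearman's rho between region width and gap width was 0.305 over 205 regions split in husk and 0.325 over 128 split in V2-IST. Between region width and the summed width of the parts it was 0.954 and 0.905, where parts and region share their boundaries by construction.

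**Figure D3:**
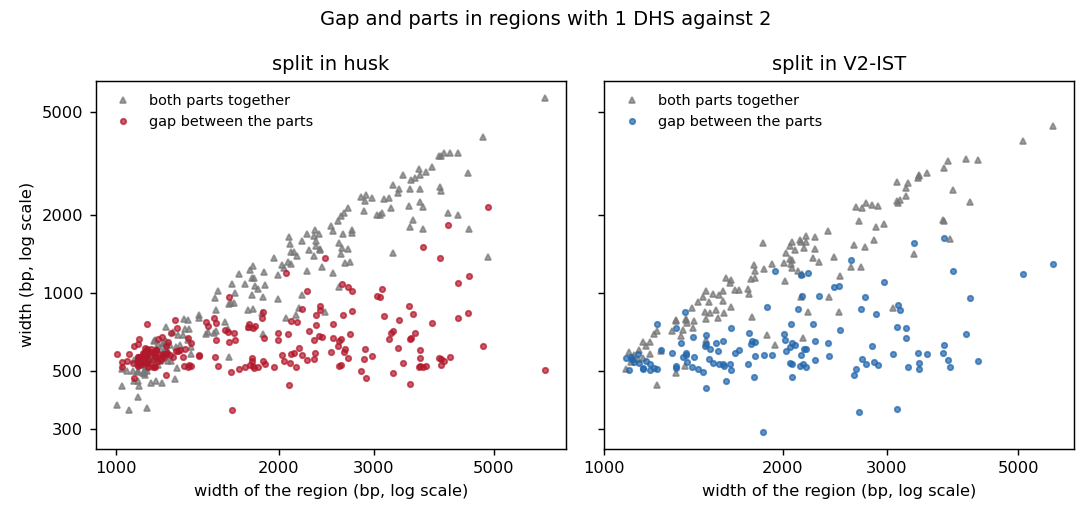
Width of the gap (circles) and summed width of both parts (grey triangles), in bp, against the width of the region, for regions with 1 DHS against 2. All axes are on a log scale, and each region gives a circle and a triangle. Most gaps lie between 500 and 750 bp at every region width, and the parts widen with the region.

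The parts of a split site were unequal in size but rarely extreme. In the 205 regions split in husk into 2 DHSs, the larger had a median width of 578 bp and the smaller of 314 bp. The median ratio of smaller to larger was 0.675. In the 128 regions split in V2-IST, the medians were 725.5 and 386 bp and the ratio was 0.613. The smaller part reached at least 70% of the larger in 89 husk-split regions (43.4%) and 49 V2-IST-split regions (38.3%). It stayed under 25% in 12 and 13 regions, respectively. The centre of the gap lay a median of 44.3% of the region width from the nearer end in husk-split regions. In V2-IST-split regions, this distance was 41.2%. The gap took up a median of 40.5% and 38.0% of the spanning DHS, respectively, which keeps its centre away from the ends. DHSs of both lists were at least 129 bp wide, which limits how unequal the parts of narrow regions could be. Pairs that stayed apart in both tissues were not measured for this. The larger part came first along the chromosome in 120 of 205 husk-split regions (58.5%, 51.7 to 65.1) and in 62 of 128 V2-IST-split regions (48.4%). The strand of nearby genes was not used here.

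Continuous DHSs usually covered at least 50% of each part but did not usually contain both parts whole. At 198 of 219 spanned husk gaps (90.4%), at least 50% of each flanking DHS lay inside the V2-IST DHS. The same held for 121 of 148 V2-IST gaps (81.8%). In 84 of the 205 husk-split regions (41.0%), the V2-IST DHS contained both husk DHSs whole, against 23 of the 128 regions split in V2-IST (18.0%). In the latter, neither part was contained whole in 37 regions (28.9%). V2-IST DHSs also reached farther in one-to-one regions of at least 1000 bp. There, V2-IST alone held 23.3% of the length and husk alone 11.1%. The summed width of the parts exceeded that of the continuous DHS in only 7 and 9 regions.

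Outer boundaries of split regions were compared because the rule uses only whether DHSs overlap. The start of the first DHS and the end of the last DHS were set against each other between the lists, and both differences were summed. A DHS that spans a gap has to reach the parts on both sides, which limits how far inside the parts it can end. The median summed difference was 133.5 bp in split regions (104 to 159) and 125 bp in one-to-one regions (122 to 129). In the 3116 one-to-one regions of at least 1000 bp, it was 433 bp (405 to 460). Husk-split regions had a median of 91 bp (74 to 123) and V2-IST-split regions of 175 bp (148 to 226). Both ends lay within 100 bp in 184 of 350 split regions (52.6%) and in 51.6% of all one-to-one regions. In one-to-one regions of at least 1000 bp, the share was 21.9%. Ends that differ add to the width of a one-to-one region, so this minimum width favours regions with unlike ends. With DHSs under 300 bp left out, the median difference of split regions was 204 bp.

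Coverage by tissue differed from that of unsplit regions as the gaps require. The split regions covered 781.1 kb in total. Of this length, 55.7% was open in both tissues, 26.6% in V2-IST alone and 17.7% in husk alone. In one-to-one regions of at least 1000 bp, 65.5% was open in both, 23.3% in V2-IST alone and 11.1% in husk alone. In regions split in husk, V2-IST alone held 39.8% of the length and husk alone 3.85%. In regions split in V2-IST, husk alone held 37.0% and V2-IST alone 8.70%.

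The share of shared regions that were split increased with width, which is in part built into the rule, since 2 DHSs and the gap between them need room. None of the 8468 shared regions under 1000 bp was split. The share was 6.08% at 1000 to 1500 bp (119 of 1958), 7.98% at 1500 to 2000 bp (60 of 752), 17.2% at 2000 to 3000 bp (93 of 540, 14.3 to 20.6) and 36.1% at 3000 bp or more (78 of 216, 30.0 to 42.7). Counted per DHS, 5.94% of V2-IST DHSs of at least 1000 bp (214 of 3602) and 5.79% of such husk DHSs (143 of 2469) spanned a gap of the other tissue, with intervals of 5.22 to 6.76 and 4.94 to 6.78. Broad DHSs of both tissues thus spanned gaps at shares that these data did not separate. Of DHSs of 3000 bp or more, 23.5% spanned a gap in the case of V2-IST DHSs and 26.9% in the case of husk DHSs.

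Split regions of 1000 to 1500 bp were most frequent near 1100 bp. The finer bands of width were chosen after the values were seen. In the band of 1100 to 1150 bp, 36 of 287 shared regions were split (12.5%, 9.20 to 16.9). The share was 2.60% in the band below it and 7.69% in the band above it. Of these 36 regions, 31 were split in husk and 5 in V2-IST. The 31 regions split in husk lay on 9 chromosomes. A fixed total width, together with the scarcity of gaps under 500 bp in the lists, limits how far their gaps, parts and outer ends could vary, so the values are a description of the band. Their husk gaps measured 520 to 764 bp with a median of 567 bp. The larger husk DHS had a median of 289 bp (220 to 408) and the smaller of 216 bp (139 to 293). The V2-IST DHS measured 1087 to 1149 bp. Outer boundaries of the tissues differed by 2 to 93 bp in sum, with a median of 30 bp. Over all split regions of 1000 to 1500 bp, husk was the split side in 84 of 119 (70.6%, 61.9 to 78.0). Among wider regions split in one tissue, it was the split side in 123 of 221 (55.7%, 49.1 to 62.1).

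**Figure D4:**
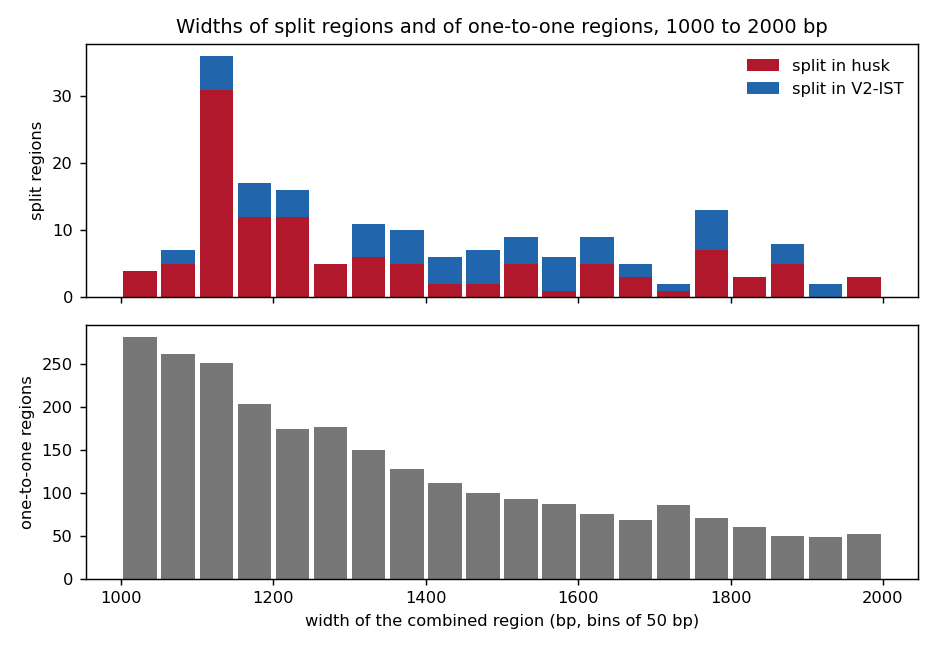
Number of split regions (top, red for split in husk and blue for split in V2-IST, stacked) and of one-to-one regions (bottom) by width of the combined region, in bins of 50 bp from 1000 to 2000 bp. The 10 regions with gaps in both tissues are not drawn. Split regions are most frequent at 1100 to 1150 bp, with 31 split in husk and 5 in V2-IST, while one-to-one regions show no peak there.

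Boundaries of the split regions of 1000 to 1500 bp matched closely between the tissues apart from the gap. Both outer ends lay within 100 bp in 108 of these 119 regions (90.8%, 84.2 to 94.8), against 25.7% of the 1839 one-to-one regions of the same width and 32.9% of the 231 wider split regions. Their median outer difference was 52 bp, against 330 bp in one-to-one regions of the same width. Parts in this class are short, which limits how far the ends can differ. Ends that differ also add to the width of a one-to-one region. In 14 split regions the outer ends differed by at most 10 bp in sum, a limit set after the values were seen. Of these, 12 were narrower than 1500 bp and 11 were split in husk. At chromosome 5, 101031729 to 101032868, both outer ends were identical, and a husk DHS of 1140 bp faced V2-IST DHSs of 316 and 242 bp separated by 582 bp. The opposite arrangement was seen on chromosome 6 at 17740449 to 17741588. There, a V2-IST DHS of 1140 bp faced husk DHSs of 189 and 408 bp separated by 541 bp, with the outer ends 2 bp apart in sum. On chromosome 3, at 63320252 to 63321394, a V2-IST DHS of 1140 bp faced husk DHSs of 287 and 258 bp, with a gap of 598 bp.

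Position along the chromosome was not used to choose split regions. Each chromosome was divided into 10 equal segments, numbered from its start. In maize, genes and open chromatin are denser toward the chromosome ends and sparse around the centromeres. Of all split regions, 36.9% lay in the outermost segments, 1 and 10 (129 of 350, 32.0 to 42.0), against 35.2% of one-to-one regions and 39.2% of those of at least 1000 bp. The ratio of the share of split regions to that of all one-to-one regions was 1.05 (0.912 to 1.20). With DHSs under 300 bp left out it was 1.19 (1.03 to 1.39), an interval above 1. Segments 3 to 8 held 162 of the 350 split regions (46.3%, 41.1 to 51.5), against 41.5% of all one-to-one regions (40.6 to 42.4) and 37.5% of those of at least 1000 bp (35.8 to 39.2). Of regions split in V2-IST, 44.4% lay in the outermost segments (59 of 133, 36.2 to 52.8). Of regions split in husk, 31.9% did (66 of 207, 25.9 to 38.5), and the intervals of the sides overlap.

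When split regions were divided by width, the narrow ones lay inward. Of the 119 split regions of 1000 to 1500 bp, 87 were in segments 3 to 8 of their chromosome (73.1%, 64.5 to 80.3). Among one-to-one regions of the same width, 719 of 1839 were there (39.1%, 36.9 to 41.3). The central segments, 5 and 6, held 31 of the 119 (26.1%, 19.0 to 34.6), against 11.2% of one-to-one regions. Wider split regions did not share this position. Segments 3 to 8 held 31.7% of those of 1500 to 2000 bp, 28.0% of those of 2000 to 3000 bp and 38.5% of those of 3000 bp or more. One-to-one regions of the same widths had shares of 36.4%, 34.0% and 31.9%, with overlapping intervals. None of the 60 split regions of 1500 to 2000 bp lay in segments 5 and 6, where the Wilson interval reaches 6.02%. Of one-to-one regions of that width, 7.08% lay there (5.40 to 9.24), and these intervals overlap. The inward position was present on both sides, in 73.8% of the 84 narrow regions split in husk and 71.4% of the 35 split in V2-IST. Narrow one-to-one regions under 500 bp, which are closest in width to the parts, had a share of 46.7%. All DHSs reached 300 bp in only 24 of the 119 narrow split regions. The division by width was made after the values were seen.

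The inward position was not particular to pairs that differed between the tissues. Pairs of neighbouring husk DHSs at most 1 kb apart that were separate in both tissues were measured from the start of the first DHS to the end of the last. Of 124 such pairs with a span of 1000 to 1500 bp, 81 lay in segments 3 to 8 (65.3%, 56.6 to 73.1). At wider spans the shares were 35.2%, 36.3% and 34.3%. The intervals of narrow split regions and narrow separate pairs overlap. Husk pairs of narrow span that were separate in both tissues thus also lay inward. Pairs of V2-IST DHSs were not measured.

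**Figure D5:**
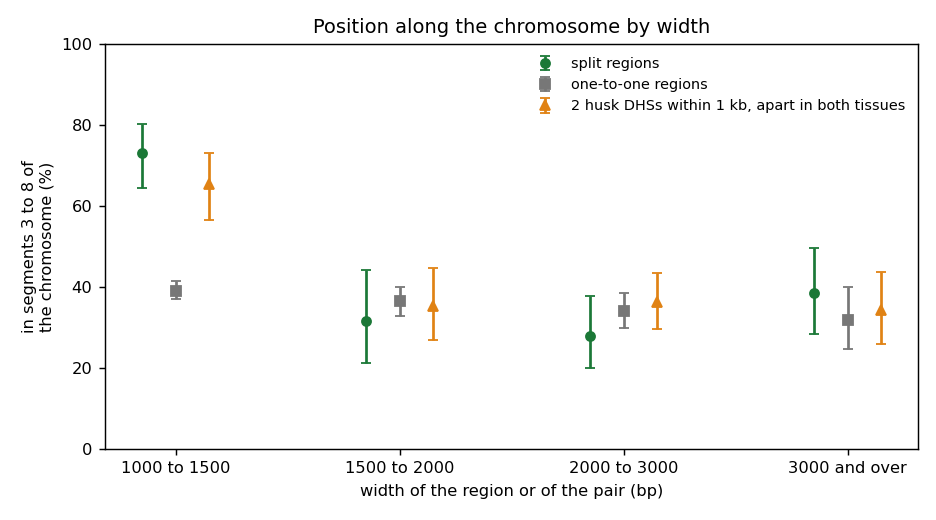
Share located in segments 3 to 8 of the 10 equal segments of a chromosome (%), by width in bp, for split regions (green), one-to-one regions (grey) and pairs of husk DHSs at most 1 kb apart that were separate in both tissues (orange). Points are shares and bars are 95% Wilson intervals. At 1000 to 1500 bp, split regions and separate pairs lie at 73.1% and 65.3%, above one-to-one regions at 39.1%, and at larger widths the intervals of the 3 groups overlap.

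Narrow split regions also lay farther from other open chromatin than one-to-one regions of the same width. The separate pairs, which lay inward too, were not measured for this. Whether such isolation was particular to split regions was therefore not tested. The nearest other combined region was a median of 45395 bp away for split regions of 1000 to 1500 bp (26446 to 74919) and 4340 bp away for one-to-one regions of the same width (3913 to 4929). A further combined region lay within 5 kb of 23 of the 119 (19.3%, 13.2 to 27.3), against 52.6% of one-to-one regions of that width. For the 31 regions of 1100 to 1150 bp split in husk, the median distance was 113942 bp. Split regions of 1500 bp or more were 1861 bp from the nearest region (1606 to 2541), against 2515 bp for one-to-one regions of that width (2270 to 2799). Over all split regions the median was 4321 bp, between that of one-to-one regions (5946 bp) and that of one-to-one regions of at least 1000 bp (3368 bp).

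Split regions seldom neighboured each other. Another split region lay within 100 kb of 28 of the 350 (8%), and within 5 kb of 4 regions, which form 2 pairs. On chromosome 6, the region at 158313585 to 158315338 had a gap of 704 bp in V2-IST. The next region, at 158315885 to 158319882 and 546 bp away, had a gap of 529 bp in husk. The split side thus changed between the neighbours. On chromosome 7, the regions at 1369793 to 1371298 and at 1371995 to 1374380 were 696 bp apart, and both had V2-IST gaps, of 611 and 641 bp. Both pairs were chosen after their values were seen.

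All 10 chromosomes held split regions, from 18 on chromosome 6 to 62 on chromosome 1. The share of shared regions that were split was highest on chromosome 7 (35 of 1027, 3.41%, 2.46 to 4.70) and lowest on chromosome 6 (18 of 917, 1.96%, 1.25 to 3.08). These intervals overlap. On every chromosome, more regions were split in husk than in V2-IST, for example 21 against 19 on chromosome 3 and 33 against 13 on chromosome 2. Chromosomes come from the same lists and are not replicates. With DHSs under 300 bp left out, the husk share over all chromosomes was 53.3% (46.6 to 59.8).

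In the 10 regions with 2 DHSs in each tissue, the gaps were staggered, so that a DHS of one tissue spanned the gap of the other and the reverse. V2-IST gaps measured 437 to 1117 bp with a median of 804.5 bp, and husk gaps measured 488 to 1202 bp with a median of 599.5 bp. The centres of the gaps were 640.5 bp to 2442 bp apart. The V2-IST gap came first along the chromosome in 6 regions and the husk gap in 4. The one of median width lay on chromosome 1 at 203127919 to 203131727. V2-IST had DHSs of 882 and 1919 bp with a gap of 1008 bp, and husk had DHSs of 1926 and 682 bp with a gap of 968 bp.

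The widest split regions included staggered ones. The widest, on chromosome 10 at 76626034 to 76635625, spanned 9592 bp. V2-IST had DHSs of 2517 and 6194 bp separated by 855 bp, and husk had DHSs of 1244 and 7728 bp separated by 599 bp. The next, on chromosome 4 at 32827431 to 32835454, spanned 8024 bp. Its V2-IST DHSs of 6001 and 162 bp were separated by 988 bp, and its husk DHSs of 3492 and 3670 bp by 601 bp. The third, on chromosome 2 at 178909503 to 178915710, had a V2-IST DHS over its 6208 bp. Husk DHSs of 4315 and 1374 bp with a gap of 506 bp lay within it, ending 5 and 8 bp from its ends.

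In 7 regions, 3 DHSs in one tissue lay under a single DHS of the other. The middle DHS was the narrowest of the 3 in 3 of the 5 regions with 3 V2-IST DHSs. On chromosome 5 at 206105237 to 206108675, V2-IST DHSs of 700, 219 and 1160 bp were separated by 587 and 719 bp under a husk DHS of 3420 bp. On chromosome 9 at 110886280 to 110889898, V2-IST DHSs of 1302, 763 and 287 bp were separated by 557 and 616 bp, and the husk DHS measured 3619 bp. Of the regions with 3 husk DHSs, the one on chromosome 5 at 214351041 to 214353763 had DHSs of 368, 424 and 230 bp separated by 737 and 869 bp within a V2-IST DHS of 2723 bp. The other, on chromosome 4 at 188632871 to 188637934, had DHSs of 667, 453 and 1050 bp with gaps of 1352 and 551 bp, and its V2-IST DHS measured 5064 bp. Regions on chromosomes 5 and 9 were chosen as examples after their values were seen.

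Few split regions depended on a small overlap. The smallest overlap by which a DHS was joined was 6 bp, on chromosome 9 at 23319673 to 23322857, followed by 14 bp on chromosome 1 at 227362154 to 227366262 and 18 bp on chromosome 5 at 6161902 to 6163688. It was under 50 bp in 4 regions and under 100 bp in 9. Just outside the rule was a one-to-one region on chromosome 5 at 203230652 to 203231650, which ended 52 bp short of a further husk DHS. The next was on chromosome 1 at 13054210 to 13056209, 53 bp from a further V2-IST DHS. After it came a region on chromosome 5 at 213283498 to 213286025, 70 bp from a further V2-IST DHS.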

How the data were processed

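DNase-seq reads had been aligned with BWA, filtered with SAMtools and used to call peaks with MACS2, as the submitters' processing notes and the methods state. The authors called peaks in each biological replicate against naked DNA, pooled technical libraries first, and kept peaks with a large overlap between replicates. A site that was continuous in one replicate and split in the other could thus be lost. Per the file headers and values, each deposited list holds 3 columns and neither counts nor scores. Its positions have no unit other than bp. Columns that belong to no sample numbered 0. Starts were taken as 0-based and are printed 1-based. The methods name the B73 AGPv4 assembly, whereas the submitters' processing notes name B73 RefGen_v3. The largest positions, such as 306.8 Mb on chromosome 1, fit AGPv4. All positions are those of the deposited lists, given without a conversion.

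Overlapping or touching DHSs were joined as described in the report. Shares have Wilson intervals and medians have order-statistic intervals (both 95%). Chromosomes were taken to end at the last position that any DHS of either tissue reached. No test was run, since each tissue has 1 list. Members, bins and definitions were chosen with earlier results of these data known. Regions were named by rule: the 3 widest, the 3 longest and 3 shortest gaps per side, the region of median width in each arrangement with at least 5 regions, the 3 smallest overlaps, the 3 regions just outside, the chromosomes with the highest and lowest share, and any region with 5 or more DHSs, of which there were 0. Alternatives were stricter overlap rules, a minimum width, joining of neighbours, lists of equal length, other measures of width and other divisions of the chromosome. Code was checked on simulated lists with planted split regions. Sequence and gene annotation of the build were not used here. Analyses used Python 3.11.15, numpy 2.4.6, scipy 1.17.1 and matplotlib 3.10.9.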

Additional observations from a re-analysis of the deposited data

How the results depend on the processing

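No paired analysis was possible because replicates were merged into 1 list per tissue. For the same reason no replicate could be left out, and no stricter peak threshold could be set because the lists hold no score. Of 81 values recomputed for 11 results under 13 alternatives, 72 stayed within the counting error or the range set for the count. These include the ratio for the outermost segments with DHSs of at least 300 bp, 1.19, whose interval (1.03 to 1.39) lay above 1. A reversal was defined only for the side that was split more often, and 0 of those values reversed. When an overlap had to cover at least 50% of the narrower DHS, 2.63% of shared regions were split and 7.78% of V2-IST gaps of at most 1 kb were spanned. With DHSs of at least 300 bp, 223 split regions were found, 2.52% of shared regions. Husk was then the split side in 53.3%, 16.9% of husk gaps of at most 1 kb were spanned, and the median outer difference was 204 bp. All DHSs reached 300 bp in only 24 of the 119 split regions of 1000 to 1500 bp (20.2%), against 195 of 231 wider ones (84.4%). With the V2-IST list cut to its widest DHSs to equal the husk list in length, husk was the split side in 66.5%. That cut favoured a higher husk share. With width measured on husk DHSs, 24.7% of regions of 2000 to 3000 bp were split. The share of narrow split regions in segments 3 to 8 of the chromosome was 70.8% to 73.8% under 7 alternatives chosen after the data were seen. The 70.8% was found with DHSs of at least 300 bp and has a wide interval (50.8 to 85.1). With overlaps of at least 50 or 100 bp, or neighbours up to 400 bp apart joined, share and interval were identical to those reported.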
